A study of Mus musculus with 50 samples.

Results

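The 5 actin genes that were measured at high levels in the left ventricle were followed here across genotype and treatment. They are Acta1 (skeletal actin), Actc1 (cardiac actin), Acta2 (smooth muscle actin), Actb (cytoplasmic beta actin) and Actg1 (cytoplasmic gamma actin). They were chosen by gene name from a table of 35717 genes, and all 5 are in it once. RNA came from the left ventricle of C57BL/6J mice aged 40 weeks, in 50 libraries. Tg mice carry a transgene that overexpresses LARP6, an RNA-binding protein, in cardiomyocytes, and WT mice are their littermates. Angiotensin II (Ang II), a vasoconstrictor peptide, was infused at 1000 ng/kg/min and sterile saline was the vehicle, and hearts were taken after 21 days. The groups are 13 Tg Ang II, 12 Tg saline, 14 WT Ang II and 11 WT saline libraries, each with females and males. The promoter of the transgene is not given in the sources used here, and the labels do not state that each library is a separate animal, although each library number occurs once. P-values therefore measure the spread between libraries.

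Actin monomers assemble into filaments. In adult mouse cardiomyocytes the thin filament of the sarcomere is built mainly of cardiac actin, while skeletal actin is abundant in the fetal heart and is known to return in the overloaded adult ventricle, where it serves as a marker of hypertrophy. Smooth muscle actin is expressed in vessel walls and in myofibroblasts, and also in fetal cardiomyocytes, and the beta and gamma forms make up the cytoskeleton of nearly all cells. Serum response factor (SRF), together with cofactors of the myocardin family that sense free actin, is a known activator of actin genes.

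Levels are given as scaled FPKM. FPKM are fragments per transcript length and per library total, as the authors calculated them, and each library was divided by a factor between 0.776 and 1.14 that sets a typical gene equal across libraries. Library totals were between 53877439 and 91579342 counts, and the lowest count of any member in any library was 2640, for Acta2. Tests across genes used edgeR's quasi-likelihood test on the counts of 11628 genes, and a gene was called at a Benjamini-Hochberg adjusted p under 0.05. Larp6 had between 444 and 1631 scaled FPKM in the 25 Tg libraries, against 5.61 to 63.7 scaled FPKM in 24 libraries labelled WT. Library 329, labelled WT Ang II male replicate 5, had 1004 scaled FPKM of Larp6, in the Tg range, and its table column carries Tg letters. Library 847, labelled Tg Ang II male replicate 6, has a column with WT letters and had 1120 scaled FPKM of Larp6, also in the Tg range. Both were kept under their labels. Calls of Acta1, Acta2 and the level of Actc1 that rest on their groups are also given without them. Acta2 with Ang II, Acta1 between genotypes and every member for the difference in response were also not called without them. The Actc1 shares, the marker and pathway lists and the fit of males alone are given with both libraries kept. Of 6 atrial markers, Myl4, Myl7 and Sln averaged under 1 scaled FPKM in all 4 groups, while Nppa, a natriuretic peptide that stressed ventricles also make, averaged 869 scaled FPKM over all libraries. The other 2 atrial markers, Dkk3 and Stard10, averaged 1.65 and 4.21 scaled FPKM over all libraries. Nppa and Dkk3 rose by 3.07 and 1.55 on the log2 scale in Tg saline hearts and by 2.05 and 1.46 in WT Ang II hearts, each against WT saline, while Stard10 was at -0.22 (adjusted p = 0.0864) and -0.25 (adjusted p = 0.0788).

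The members share most of their coding sequence, which bears on how well reads can be assigned to them. Open reading frames were 1134 bases in the 3 muscle actins and 1128 bases in the 2 cytoplasmic actins. Identity between coding sequences was lowest between Actc1 and Actg1 and between Acta2 and Actg1, at 81.5%, and highest between Actb and Actg1, at 88.7%. Acta1 and Actc1 were 86.2% identical. The first 45 coding bases are shown because the amino-terminal end is where actins differ most. Capitals mark bases that differ from Actc1 in the muscle actins and from Actb in Actg1 (GENCODE M21 transcripts, GRCm38).
Actc1: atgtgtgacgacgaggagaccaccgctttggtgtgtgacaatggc
Acta1: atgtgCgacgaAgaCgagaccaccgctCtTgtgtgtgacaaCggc
Acta2: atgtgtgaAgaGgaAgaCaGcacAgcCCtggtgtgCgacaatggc
Actb: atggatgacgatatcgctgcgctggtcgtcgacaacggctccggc
Actg1: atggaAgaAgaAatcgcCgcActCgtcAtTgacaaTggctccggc
Within this stretch Acta1 differed from Actc1 at 6 bases, Acta2 from Actc1 at 9 bases, and Actg1 from Actb at 9 bases. Reads were 150 bases long, and no 150-base stretch of the Acta1, Actc1, Acta2 or Actb transcript occurred in a transcript of another gene. For Actg1, 43.54% of its 150-base stretches also occurred in the pseudogenes Gm12715, Gm16385 or Gm8399. Gm12715 is a processed pseudogene on chr4:103563402-103564529 that is 99.6% identical to the Actg1 coding sequence, and it held a count equal to 7.44% of that of Actg1. Actg1 values are therefore less certain than those of the other members.

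All 5 genes lie on the minus strand of GRCm38 and are annotated as protein coding. Acta1 (ENSMUSG00000031972) lies on chr8:123891769-123894751, Actc1 (ENSMUSG00000068614) on chr2:114047282-114053548 and Acta2 (ENSMUSG00000035783) on chr19:34241090-34255590. Actb (ENSMUSG00000029580) lies on chr5:142903115-142906754 and Actg1 (ENSMUSG00000062825) on chr11:120345690-120348542. The values below are given per gene, as deposited.

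Cardiac actin made up the bulk of the actin transcripts in every group. Actc1 averaged 5791 ± 363 scaled FPKM in Tg Ang II, 5575 ± 350 in Tg saline, 5306 ± 376 in WT Ang II and 5335 ± 766 in WT saline hearts (SD, n = 13, 12, 14 and 11). Its share of the summed FPKM of the 5 genes averaged 90.8% in Tg Ang II, 93.6% in Tg saline, 90.7% in WT Ang II and 94.0% in WT saline hearts. Acta1 came next in mean level in all 4 groups with the sexes together. In WT saline hearts its mean of 118 ± 61.5 scaled FPKM was within its own spread of Actg1 at 92.6 ± 23.0 and of Actb at 86.6 ± 17.1. In Tg saline hearts the Acta1 mean of 121 ± 42.3 was likewise within its own spread of Actb, Acta2 and Actg1. The order did not hold in females alone. With WT saline, Acta1 averaged 78.7 in females, below Actg1 at 102 and Actb at 89.9. With Tg saline it averaged 96.9 in females, below Acta2 at 108.5. Acta2 had the lowest mean of the 5 in Tg Ang II, WT Ang II and WT saline hearts, whereas in Tg saline hearts its mean of 87.9 ± 39.8 lay between those of Actb at 90.7 ± 21.2 and Actg1 at 81.7 ± 18.4. Those 3 means in Tg saline hearts differed by less than their spread. The same held in Tg Ang II hearts, with Acta2 at 72.5 ± 19.9, Actb at 75.7 ± 15.2 and Actg1 at 76.9 ± 15.8. In Tg Ang II females alone Acta2 was not the lowest, at 78.2 against 76.7 for Actg1. Actg2, the enteric smooth muscle actin, averaged under 1 scaled FPKM in every group and was not tested.

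**Figure D1:**
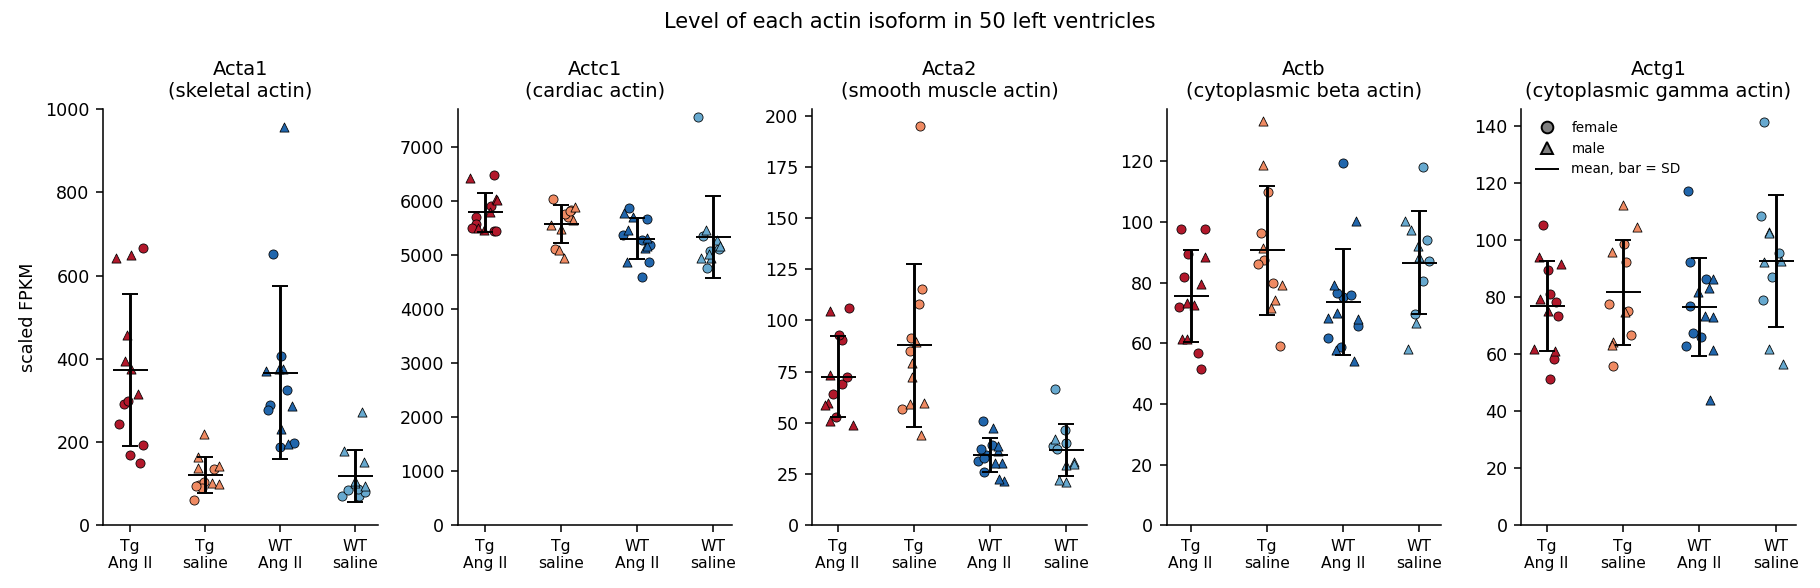
Scaled FPKM (y axis, starting at 0, own scale per panel) of each actin gene in the 50 libraries, grouped on the x axis as Tg Ang II, Tg saline, WT Ang II and WT saline; circles are females, triangles males, and the line and bar are the mean and SD. Acta1 is high in both Ang II groups and Acta2 in both Tg groups, while the other 3 genes overlap broadly across groups.

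Across treatments and genotypes, 2 isoforms were called at fold changes above 2, each with another factor of the design. Acta1 rose with Ang II in both genotypes, and Acta2 was higher in Tg hearts under both treatments. In the plot of levels, the Ang II groups stand out for Acta1 and the Tg groups for Acta2.

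Ang II raised skeletal actin in wild-type ventricles. Acta1 had a lowest level of 188, a median of 308 and a highest level of 956 scaled FPKM in WT Ang II hearts, against 71.0, 95.2 and 273 scaled FPKM in WT saline hearts. All 14 WT Ang II libraries lay above the WT saline median, and 10 of 14 lay above every WT saline library, so that the groups overlapped. The log2 fold change was 1.74 ± 0.24 (SE), or 3.34-fold, with an adjusted p of 1.17e-06 in edgeR's quasi-likelihood test. Acta1 was the one member called of 5 in this comparison, in which 18.6% of all genes tested were called, 9.71% higher and 8.87% lower. Without libraries 329 and 847 the log2 fold change was 1.75. In bulk tissue a change in the share of a cell type and a change in RNA per cell cannot be told apart.

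Skeletal actin also rose with Ang II in transgenic ventricles. The lowest, median and highest levels were 150, 316.5 and 666 scaled FPKM in Tg Ang II hearts, against 61.0, 103 and 220 scaled FPKM in Tg saline hearts. All 13 Tg Ang II libraries lay above the Tg saline median and 10 of 13 above every Tg saline library. The log2 fold change was 1.64 ± 0.23, or 3.12-fold (adjusted p = 1.66e-05, edgeR). Without libraries 329 and 847 it was 1.66. Acta1 was again the one member called of 5, where 8.93% of all genes were called, 4.88% higher and 4.04% lower. The response of Acta1 in Tg hearts differed from that in WT hearts by -0.10 ± 0.32 on the log2 scale, with a 95% confidence interval of -0.74 to 0.54 and an adjusted p of 0.933. None of the 5 members was called for a difference in response, and none had an unadjusted p under 0.05, where 5 genes or 0.043% of all genes were called, 0.0086% higher and 0.0344% lower. Over all genes 1136 had an unadjusted p under 0.05.

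No difference in Acta1 between the genotypes passed the test. Means were 121 ± 42.3 scaled FPKM in Tg saline hearts (SD, n = 12) and 118 ± 61.5 scaled FPKM in WT saline hearts (SD, n = 11). The log2 fold change was 0.12 ± 0.23, with an interval of -0.35 to 0.59 (adjusted p = 0.722, edgeR). Under Ang II, means were 373 ± 182 scaled FPKM in Tg hearts (n = 13) and 367 ± 208 scaled FPKM in WT hearts (n = 14), with a log2 fold change of 0.014 ± 0.21 and an interval of -0.42 to 0.45 (adjusted p = 0.966).

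As a share of all actin transcripts, Acta1 made up 5.71% in Tg Ang II, 2.04% in Tg saline, 6.17% in WT Ang II and 2.12% in WT saline hearts. Shares were tested by an exact two-sided permutation of labels within each sex, which does not depend on library scaling, with p-values adjusted over 25 share tests. Differences in share weight females and males equally, so they can depart slightly from the differences between the group means. The Acta1 share was 3.78 percentage points higher in Tg Ang II than in Tg saline hearts (adjusted p = 3.15e-05) and 4.11 points higher in WT Ang II than in WT saline hearts (adjusted p = 1.93e-04). With Ang II the share of Actc1 fell by 2.91 points in Tg hearts (adjusted p = 2.24e-04) and fell by 3.41 points in WT hearts (adjusted p = 0.00120). Without libraries 329 and 847 the Acta1 share was 3.88 points higher with Ang II in Tg hearts and 4.14 points higher in WT hearts, and both were still called. The level of Actc1 itself was not called in either comparison. Shares of a library add up to a fixed total, so the fall of the Actc1 share is not separate from the rise of Acta1. The highest Acta1 share of any library was 15.2%, in WT Ang II male replicate 1, where the Actc1 share was 81.9%.

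**Figure D2:**
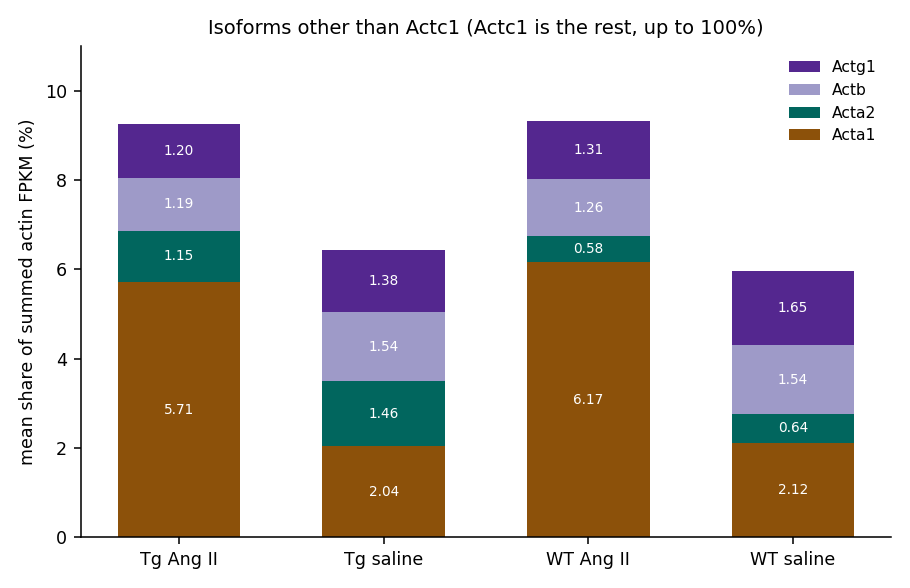
Mean share of the summed FPKM of the 5 actin genes (y axis, percent) held by Acta1, Acta2, Actb and Actg1 in each of the 4 groups (x axis); Actc1 makes up the rest to 100%. The Acta1 segment is 5.71% and 6.17% in the Ang II groups against 2.04% and 2.12% in the saline groups, and the Acta2 segment is 1.15% and 1.46% in the Tg groups against 0.584% and 0.642% in the WT groups.

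Smooth muscle actin was higher in transgenic hearts without Ang II. Acta2 had a lowest level of 43.9, a median of 82.2 and a highest level of 195 scaled FPKM in Tg saline hearts, against 21.2, 37.2 and 66.3 scaled FPKM in WT saline hearts. All 12 Tg saline libraries lay above the WT saline median and 8 of 12 above every WT saline library. The log2 fold change was 1.22 ± 0.16, or 2.34-fold (adjusted p = 7.4e-08, edgeR). Acta2 was the one member called of 5, in a comparison in which 40.6% of all genes were called, 20.4% higher and 20.2% lower. By share, 11 of 12 Tg saline libraries lay above every WT saline library, and the mean share was 1.46% in Tg saline and 0.642% in WT saline hearts, a difference of 0.809 points (adjusted p = 1.76e-04, exact permutation test).

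The difference was also present under Ang II. Acta2 ranged over 48.9, 69.2 and 106 scaled FPKM (lowest, median, highest) in Tg Ang II hearts, against 21.4, 33.7 and 50.9 scaled FPKM in WT Ang II hearts. Of 13 Tg Ang II libraries, 11 lay above every WT Ang II library. The log2 fold change was 1.07 ± 0.15, or 2.10-fold (adjusted p = 2.74e-07, edgeR). Of the 5 members 2 were called, Acta2 and Actc1, where 32.8% of all genes were called, 16.4% higher and 16.4% lower. Library 329 had 47.3 scaled FPKM of Acta2 and without it the log2 fold change of Acta2 was 1.13, and without both 329 and 847 it was 1.11 (adjusted p = 2.37e-07). The share of Acta2 was 0.560 points higher in Tg Ang II than in WT Ang II hearts (adjusted p = 3.15e-05, exact permutation test), and 0.568 points higher for Acta2 without libraries 329 and 847.

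No change of Acta2 with Ang II passed the test. In Tg hearts it averaged 72.5 ± 19.9 scaled FPKM with Ang II (SD, n = 13) and 87.9 ± 39.8 scaled FPKM with saline (n = 12), a log2 fold change of -0.25 ± 0.15 with an interval of -0.56 to 0.06 (adjusted p = 0.334, edgeR). In WT hearts it averaged 34.2 ± 8.35 scaled FPKM with Ang II (n = 14) and 36.8 ± 12.7 scaled FPKM with saline (n = 11), a log2 fold change of -0.10 ± 0.16 with an interval of -0.41 to 0.21 (adjusted p = 0.709).

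Hearts with the transgene alone were also set against WT hearts with Ang II alone, and they differed in Acta1 and Acta2. This comparison was added after the group levels had been seen. Its fold changes follow from those of Tg saline and WT Ang II hearts, each against WT saline, in the same fit. Its p-values are therefore not separate support for those comparisons. Acta1 had a mean of 121 ± 42.3 scaled FPKM in Tg saline hearts and 367 ± 208 scaled FPKM in WT Ang II hearts, a log2 fold change of -1.62 ± 0.23 (adjusted p = 4.02e-07, edgeR). Acta2 had a mean of 87.9 ± 39.8 scaled FPKM in Tg saline hearts and 34.2 ± 8.35 scaled FPKM in WT Ang II hearts, a log2 fold change of 1.32 ± 0.15 (adjusted p = 6.22e-09). Without libraries 329 and 847 the log2 fold changes were -1.63 for Acta1 and 1.38 for Acta2. These were the 2 members called of 5, where 31% of all genes were called, 15.5% in each direction. Actb was at 0.30 ± 0.12 on the log2 scale and did not pass (adjusted p = 0.0531), but DESeq2 on the same counts called it (adjusted p = 0.0391).

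Markers of the cell types that hold smooth muscle actin did not all move with it. Of 9 listed smooth muscle cell markers 5 were tested, and between Tg saline and WT saline hearts 1 rose and 3 fell, with a median log2 fold change of -0.35 beside 0.00044 over all genes, of which 20.4% rose and 20.2% fell. Desmin (Des), an intermediate filament protein that cardiomyocytes also express, rose by 0.39. Smooth muscle myosin (Myh11) fell by 0.35, smoothelin (Smtn) fell by 0.41 and myosin light chain kinase (Mylk) fell by 0.39, while Tagln, an actin-binding protein of smooth muscle, was at -0.12 (adjusted p = 0.442). Cnn1, Lmod1, Actg2 and Itga8 averaged under 1 scaled FPKM in every group. The summed level of this list, most of it Des, was 452 to 576.5 scaled FPKM in Tg saline hearts and 350 to 429 scaled FPKM in WT saline hearts. Under Ang II the same list held 1 higher and 2 lower genes in Tg than in WT hearts, where 32.8% of all genes were called. Between WT Ang II and WT saline hearts 1 of these genes rose and 2 fell, with a median of -0.23. Over all genes 9.71% rose and 8.87% fell in that comparison.

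Of 8 pericyte markers 1 rose and 6 fell between Tg saline and WT saline hearts. Between WT Ang II and WT saline hearts none of them rose and 2 fell, with a median of -0.2. Under Ang II 1 was higher and 7 were lower in Tg than in WT hearts, where 32.8% of all genes were called. For this and the next lists, 20.4% of all genes rose and 20.2% fell in Tg saline hearts, and 9.71% rose and 8.87% fell in WT Ang II hearts. The proteoglycan Cspg4 rose by 0.42, and the potassium channel subunit Abcc9 fell by 0.93. The summed level of the 8 genes was 109 to 144 scaled FPKM in Tg saline hearts and 160 to 208 scaled FPKM in WT saline hearts. Of the 9 listed myofibroblast markers 7 were tested and 6 were higher in Tg saline hearts, with a median of 1.12, and 6 were higher in WT Ang II than in WT saline hearts, with a median of 1.13. Among them Postn, a matrix protein of activated fibroblasts, was at 1.72 ± 0.26 in Tg saline and 1.83 ± 0.26 in WT Ang II hearts, each against WT saline. The summed myofibroblast level was 46.0 to 120 scaled FPKM in Tg saline, 29.6 to 158 in WT Ang II and 21.7 to 38.0 in WT saline hearts, and Cthrc1 and Fap averaged under 1 scaled FPKM. All 9 resident fibroblast markers were higher in Tg saline than in WT saline hearts, with a median of 0.49, and 2 of 9 were higher and 1 lower in WT Ang II hearts. Of 10 cardiomyocyte markers 6 were lower in Tg saline hearts and none was higher. Of 9 macrophage markers 8 were higher in Tg saline hearts and none was lower, with a median of 0.80 and summed levels of 152 to 425 scaled FPKM in Tg saline and 99.6 to 129 scaled FPKM in WT saline hearts. Of 8 endothelial markers 7 were lower and none was higher, with a median of -0.43 and summed levels of 87.5 to 120 scaled FPKM in Tg saline and 123 to 191 scaled FPKM in WT saline hearts. The part of any of these cell types in the Acta2 level was not tested.

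**Figure D3:**
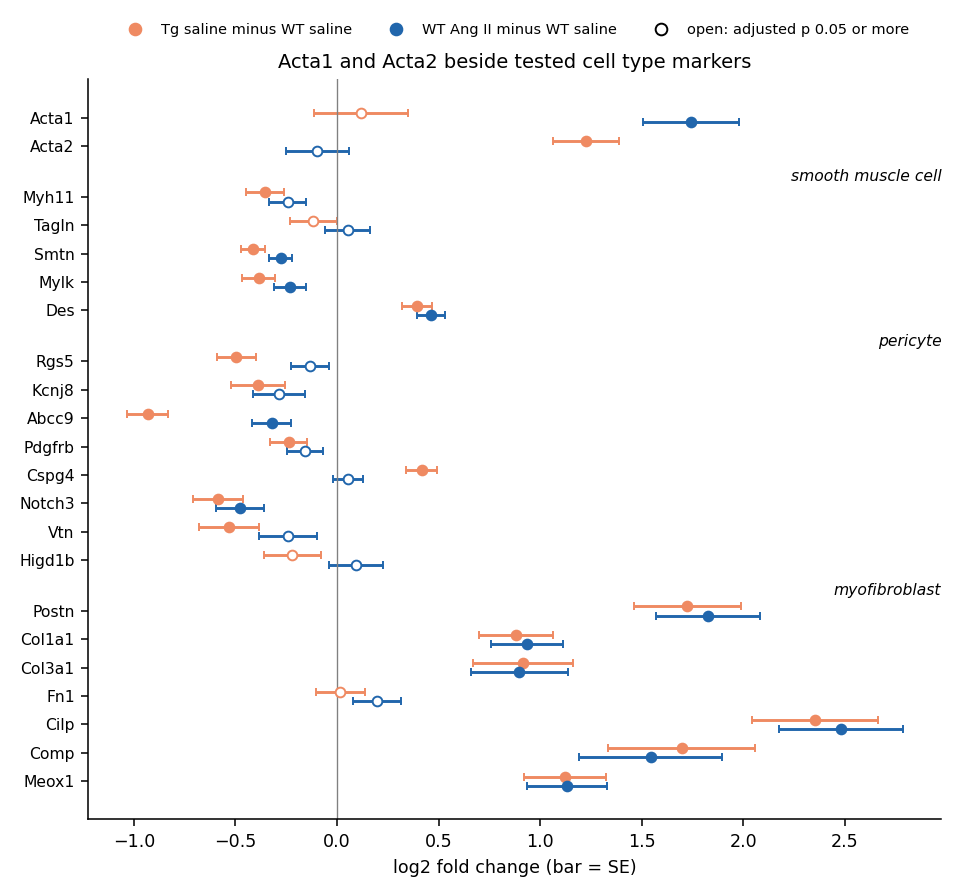
Log2 fold change with SE (x axis) of Acta1, Acta2 and all tested markers of smooth muscle cells, pericytes and myofibroblasts (y axis), for Tg saline against WT saline (orange) and WT Ang II against WT saline (blue), which share the WT saline libraries; filled points have an adjusted p under 0.05. The myofibroblast markers lie at like values in both comparisons, whereas Acta2 lies at 1.22 and -0.10 and Acta1 at 0.12 and 1.74.

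Other genes of fast skeletal muscle were set beside Acta1. Of 8 such genes Myh1, Myh2, Myh4, Tnnt3, Tnni2, Mylpf and Actn3 averaged under 1 scaled FPKM in all 4 groups, and the remaining one, Ckm, is also a gene of the heart. Ckm was not called between WT Ang II and WT saline hearts, at 0.038 ± 0.080 on the log2 scale, and fell by 0.77 between Tg saline and WT saline hearts.

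Cardiac actin itself varied little. The lowest, median and highest levels were 5445, 5696 and 6480 scaled FPKM in Tg Ang II, 4951, 5678 and 6030 in Tg saline, 4586, 5297 and 5880 in WT Ang II, and 4758, 5105 and 7562 in WT saline hearts. Between Tg Ang II and WT Ang II hearts Actc1 rose by 0.13 ± 0.049 on the log2 scale, or 1.09-fold (adjusted p = 0.0373, edgeR). All 13 Tg Ang II libraries lay above the WT Ang II median, and 9 of 14 WT Ang II libraries lay below every Tg Ang II library. Without libraries 329 and 847 Actc1 was at 0.13 (adjusted p = 0.0494). This call was lost when 10 of the 50 libraries were left out in turn, with log2 fold changes of 0.11 to 0.14 and adjusted p of 0.00793 to 0.0783. Between Tg saline and WT saline hearts the log2 fold change was 0.059 ± 0.053 (adjusted p = 0.390), and leaving out WT saline female replicate 5, the library at 7562 scaled FPKM, gave 0.13 with an adjusted p of 0.0166. With Ang II, Actc1 was at 0.057 ± 0.050 in Tg hearts and -0.012 ± 0.051 in WT hearts, and neither passed. The share of Actc1 was 90.8% in Tg Ang II and 90.7% in WT Ang II hearts.

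The beta and gamma cytoplasmic actins were not called in any comparison by edgeR's test as scaled here. Between Tg saline and WT Ang II hearts, Actb was called by DESeq2, as given above, and by edgeR with counts scaled by library size alone (adjusted p = 0.0284). With each library left out in turn, edgeR called Actb there in 11 of 50 runs, with adjusted p of 0.0116 to 0.134. Actb averaged 75.7 ± 15.2 scaled FPKM in Tg Ang II, 90.7 ± 21.2 in Tg saline, 73.7 ± 17.5 in WT Ang II and 86.6 ± 17.1 in WT saline hearts. Its log2 fold change with Ang II was -0.26 ± 0.12 in Tg hearts (interval -0.51 to -0.015, adjusted p = 0.180, edgeR) and -0.24 ± 0.12 in WT hearts (interval -0.49 to 0.011, adjusted p = 0.174). Actg1 averaged 76.9 ± 15.8 in Tg Ang II, 81.7 ± 18.4 in Tg saline, 76.5 ± 17.3 in WT Ang II and 92.6 ± 23.0 in WT saline hearts. Its log2 fold change with Ang II was -0.085 ± 0.13 in Tg hearts (adjusted p = 0.754) and -0.28 ± 0.13 in WT hearts (adjusted p = 0.114). When the counts of Gm12715 were added to those of Actg1, Actg1 was still not called in any comparison by edgeR. For the transgene, Actb was at 0.060 ± 0.13 with saline and 0.035 ± 0.12 with Ang II, and Actg1 was at -0.19 ± 0.13 with saline and 0.0099 ± 0.12 with Ang II. Actb made up 49.6% of the summed FPKM of the pair in Tg Ang II, 52.6% in Tg saline, 49.1% in WT Ang II and 48.6% in WT saline hearts. As a share of all 5 genes, Actb changed by -0.359 points with Ang II in Tg hearts (adjusted p = 0.0516, exact permutation test). That change was called in 9 of 50 runs with a library left out and in males alone (-0.542 points, adjusted p = 0.0451). In WT hearts the shares of Actb and Actg1 changed by -0.282 and -0.351 points with Ang II (adjusted p = 0.126 and 0.0900). These 2 were called in 1 and 3 of 50 such runs.

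The cytoplasmic pair varied together from library to library within groups. Over the 50 libraries, after the mean of each of the 8 groups of genotype, treatment and sex was taken off, Pearson's r between Actb and Actg1 was 0.863 and Spearman's rho 0.847. The permutation p of both was 1e-05, the smallest that 100000 resamples can give, or 1e-04 adjusted over 10 pairs. Without the 2 libraries farthest from the median of Actb, r was 0.841. Libraries were numbered in 10 clusters, and within the 3 clusters of 6 or more libraries r was 0.971, 0.804 and 0.913. With the means of all clusters taken off as well, r was 0.821. None of the other 9 pairs of members passed, and the next highest was Actc1 with Acta2 at r = 0.292 (adjusted p = 0.191). Acta1 and Acta2 were at r = -0.228 (adjusted p = 0.312). Reads of 150 bases from Actb and Actg1 can be told apart by sequence. Of the 50-base stretches, 14.22% of those of Actb occur in other genes, Actg1 among them. For Actg1 it is 56.7%, with Actb among the other genes. The part of shared reads in this relation was not tested.

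**Figure D4:**
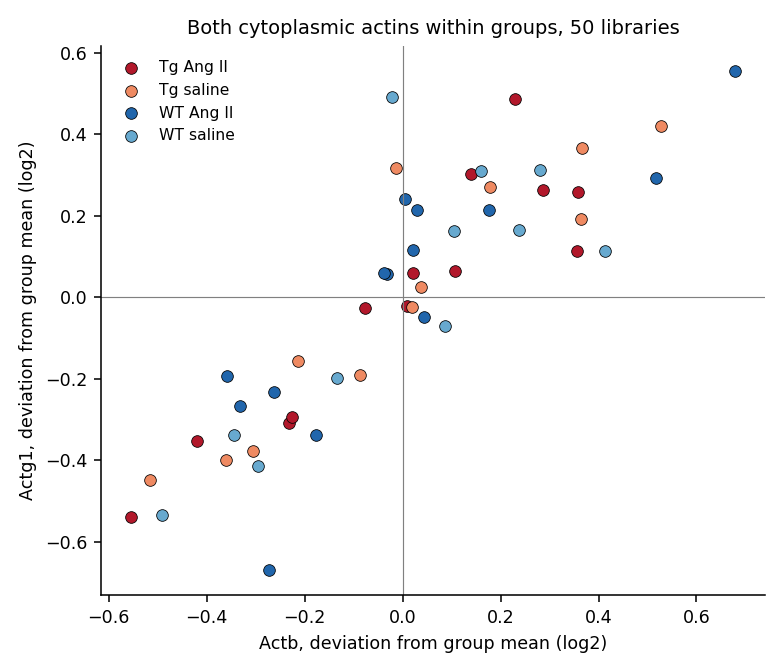
Deviation of each library from its group mean for Actb (x axis) and Actg1 (y axis), both on a log2 scale of scaled FPKM + 1, for the 50 libraries colored by group. The points of all 4 groups lie along 1 rising band, with r = 0.863.

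Females and males differed in 2 isoforms. Acta1 fell to 0.649-fold in females against males, a log2 fold change of -0.62 ± 0.16 (adjusted p = 0.0149, edgeR), and Acta2 rose by 0.43 ± 0.11, or 1.35-fold (adjusted p = 0.0134). Without libraries 329 and 847 they were -0.64 for Acta1 and 0.47 for Acta2, both still called. These were the 2 members called of 5, where 4.42% of all genes were called, 1.86% higher and 2.56% lower. Acta1 averaged 288 ± 177 scaled FPKM in females and 473 ± 141.5 in males with Tg Ang II, 96.9 ± 24.1 and 145 ± 44.5 with Tg saline, 334 ± 159 and 399 ± 256 with WT Ang II, and 78.7 ± 7.66 and 151 ± 68.1 with WT saline. The female mean was the lower in each of the 4 groups. Acta2 averaged 78.2 ± 18.7 scaled FPKM in females and 65.9 ± 20.7 in males with Tg Ang II, 108.5 ± 46.9 and 67.35 ± 16.4 with Tg saline, 36.0 ± 7.81 and 32.4 ± 9.09 with WT Ang II, and 45.9 ± 11.97 and 29.2 ± 7.51 with WT saline. The female mean was the higher in each of the 4 groups.

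Both main changes were present in each sex. With Ang II, Acta1 rose by 1.57 ± 0.30 in female and 1.71 ± 0.33 in male Tg hearts, and by 2.09 ± 0.33 in female and 1.40 ± 0.31 in male WT hearts. Between Tg saline and WT saline hearts Acta2 rose by 1.24 ± 0.24 in females and 1.21 ± 0.21 in males. Under Ang II it was higher in Tg hearts by 1.12 ± 0.20 in females and 1.02 ± 0.20 in males. Each of these passed in a fit of that sex alone, with adjusted p between 3.64e-04 and 0.0366. The response to Ang II of females minus that of males was not called for any member, nor for any gene by edgeR, where 491 genes had an unadjusted p under 0.05. For Acta1 that difference was 0.27 ± 0.32, and for Acta2 it was -0.47 ± 0.22 (unadjusted p = 0.0356, adjusted p = 0.9995).

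**Figure D5:**
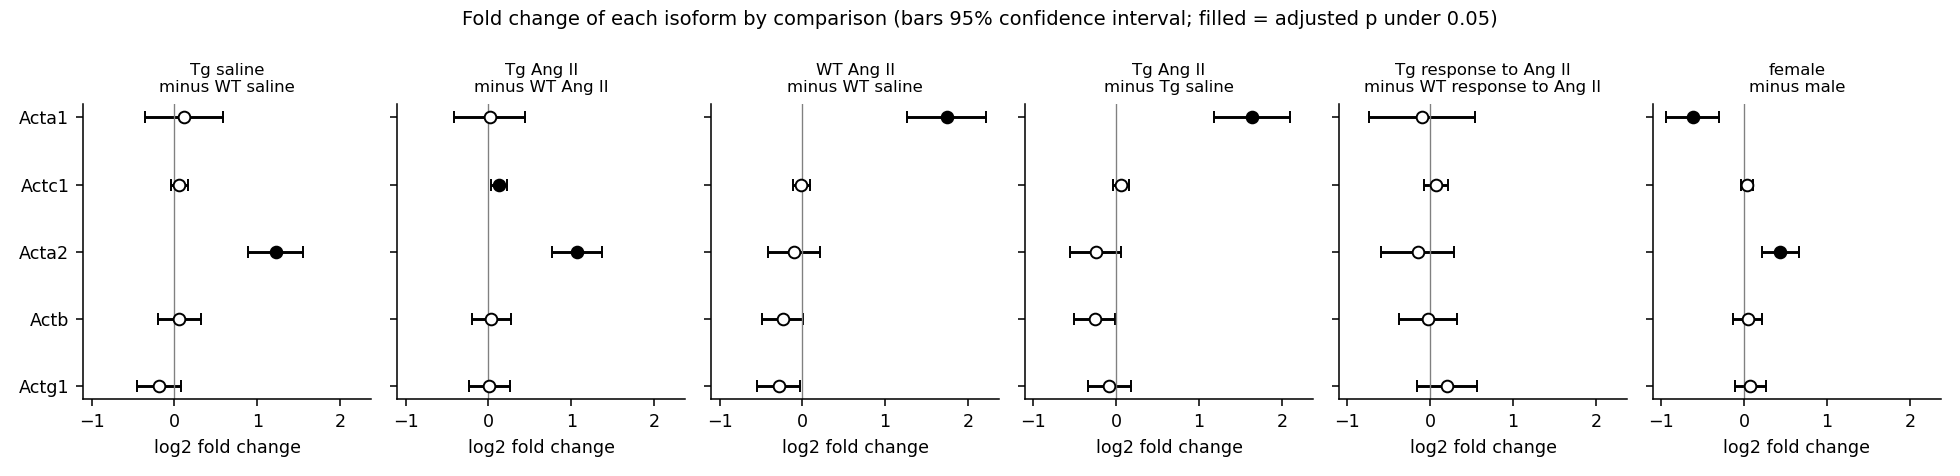
Log2 fold change (x axis) of each actin gene (y axis) in 6 comparisons from 1 edgeR fit, with 95% confidence intervals; filled points have an adjusted p under 0.05. Acta1 is filled in both Ang II comparisons and for sex, Acta2 in both genotype comparisons and for sex, and Actc1 for Tg Ang II against WT Ang II.

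Promoter sequence was looked at because SRF binds the CArG box, a motif of 10 bases with CC and GG at its ends and a run of A or T between them. The search covered the 250 bases before the start of each gene in RefSeq (GRCm38.p6), and a box in either strand is found by the same letters. RefSeq windows were matched for 4 of the 5 members, Acta1, Actc1, Acta2 and Actg1. A C or G at up to 1 inner position was counted as 1 mismatch. Such boxes numbered 3 in Acta1, 4 in Actc1, 2 in Acta2 and 1 in Actg1, and 1 box each in Acta1, Actc1 and Actg1 had no mismatch. Of 32851 RefSeq windows of the same length 1.47% held a box without mismatch, 8.59% held 1 with up to 1 mismatch and 0.67% held at least 2 of these. Of the 10 boxes 8 are shown, those without a mismatch and a choice of the others. Each line gives 30 bases on the minus strand with the box in capitals, and the position of the box counted back from the start.
Acta1 at -73 to -64, chr8:123894829-123894858: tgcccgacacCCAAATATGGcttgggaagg
Acta1 at -154 to -145, chr8:123894910-123894939: ccagtcctctCCTTCTTTGGtcagtgcagg
Acta1 at -205 to -196, chr8:123894961-123894990: gggatactctCCATATACGGcctggtccgg
Actc1 at -47 to -38, chr2:114052903-114052932: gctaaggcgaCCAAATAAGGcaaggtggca
Actc1 at -175 to -166, chr2:114053031-114053060: ctccctagctCCCTATATGGccattgctct
Acta2 at -34 to -25, chr19:34255388-34255417: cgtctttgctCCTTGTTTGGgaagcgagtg
Acta2 at -84 to -75, chr19:34255438-34255467: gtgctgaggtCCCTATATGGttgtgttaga
Actg1 at -90 to -81, chr11:120348566-120348595: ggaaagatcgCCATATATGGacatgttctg
Both Acta2 stretches lie inside the first exon of Acta2 in GENCODE M21, whose start at base 34255590 is farther upstream than the one in RefSeq. The GENCODE start of Actc1, at base 114053548, is also upstream of the RefSeq window, so the Actc1 boxes lie within that gene, outside its exons. The Acta1 and Actg1 boxes lie before the start of their gene in both annotations. The boxes are letters in a sequence, and no binding was measured. The genes that hold them differed in their responses: Acta1 was called with Ang II, Acta2 between genotypes, Actc1 between genotypes under Ang II alone and Actg1 in none of these comparisons.

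Regulators of actin transcription were followed as a list. Of 16 tested genes for SRF, its cofactors and partner factors, 4 rose and 3 fell between Tg saline and WT saline hearts, and 3 rose and 2 fell between WT Ang II and WT saline hearts. Over all genes 40.6% were called in the first comparison and 18.6% in the second, and the list count lies near that share in the first. The list medians were -0.0040 and 0.023. Abra, a striated muscle protein that activates SRF through its cofactors, rose by 0.93 ± 0.15 in Tg saline hearts and by 0.66 ± 0.14 in WT Ang II hearts. Mef2a, a muscle transcription factor, fell by 0.29 in Tg saline hearts and fell by 0.19 in WT Ang II hearts. Elk3, an ETS factor that partners SRF, fell by 0.41 in Tg saline hearts, and Fhl2, a LIM protein that binds SRF, rose by 0.17 in WT Ang II hearts.

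Among 21 tested genes listed as other known targets of SRF, 8 rose and 1 fell in Tg saline hearts, and 9 rose and 1 fell in WT Ang II hearts, each against WT saline. Over all genes 20.4% rose and 20.2% fell in Tg saline hearts, and 9.71% rose and 8.87% fell in WT Ang II hearts. The list thus leaned toward rises in both, while rises and falls were near equal over all genes. With both directions together, the count in Tg saline hearts lies near the 40.6% of all genes called. That in WT Ang II hearts stands beside 18.6%. The medians were 0.054 and 0.21. Ankrd1, a stretch-responsive nuclear and sarcomeric protein, rose by 2.38 ± 0.22 in Tg saline and by 1.28 ± 0.20 in WT Ang II hearts. Nppa rose by 3.07 ± 0.28 in Tg saline and by 2.05 ± 0.27 in WT Ang II hearts. Ccn2, a matricellular growth factor, rose by 2.16 ± 0.20 in Tg saline hearts, and Pdlim5, a Z-disc protein, rose by 0.34 ± 0.050 in WT Ang II hearts.

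Genes of actin filament turnover changed in both directions. Of 21 genes that bind monomers or cap and sever filaments, 10 rose and 4 fell in Tg saline hearts, and 8 rose and 2 fell in WT Ang II hearts, with medians of 0.14 and 0.11. Over all genes 20.4% rose and 20.2% fell in Tg saline hearts, and 9.71% rose and 8.87% fell in WT Ang II hearts. The capping protein Twf2 rose by 0.37 ± 0.051 in Tg saline and by 0.35 ± 0.049 in WT Ang II hearts, and muscle cofilin (Cfl2), which severs filaments, rose by 0.31 in Tg saline and by 0.27 in WT Ang II hearts. Tropomodulin 4 (Tmod4), which caps the pointed end of thin filaments in skeletal muscle, fell by 0.97 in Tg saline and fell by 0.49 in WT Ang II hearts. Of 14 tested nucleation genes 6 rose and 3 fell in Tg saline hearts and 5 rose and none fell in WT Ang II hearts, beside the same shares of all genes. The Arp2/3 subunit Arpc3 rose by 0.37 in Tg saline and by 0.26 in WT Ang II hearts, Arpc2 and Arpc5 rose by 0.16 and 0.29 in WT Ang II hearts, and the formins Fhod1 and Fhod3 fell by 0.55 and 0.33 in Tg saline hearts.

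Proteins that fold actin or hold filaments in place were followed as 2 further lists. Of 17 folding and processing genes 7 rose and 2 fell in Tg saline hearts, and 2 rose and none fell in WT Ang II hearts. Over all genes 40.6% were called in Tg saline hearts, 20.4% higher and 20.2% lower. In WT Ang II hearts 18.6% of all genes were called, 9.71% higher and 8.87% lower. The chaperonin subunits Cct8, Cct6a and Cct5 rose by 0.18, 0.16 and 0.16 in Tg saline hearts. Cct4 and the prefoldin subunit Pfdn1 rose by 0.14 and 0.29 in WT Ang II hearts, and Tcp1 was at 0.056 (adjusted p = 0.0837). Of 17 tested cross-linking and anchoring genes 7 rose and 3 fell in Tg saline hearts, and 9 rose and none fell in WT Ang II hearts, beside the same shares of all genes and with medians of 0.094 and 0.17. Nrap, a protein of the myotendinous and intercalated disc junctions, rose by 0.41 in Tg saline and by 0.44 in WT Ang II hearts. Filamin C (Flnc) rose by 0.79 and Synpo2l, a Z-disc protein, by 1.56 in Tg saline hearts, while Xirp2, an actin-binding repeat protein, rose by 0.86 and Myoz2, a calcineurin-binding Z-disc protein, by 0.39 in WT Ang II hearts. Of 9 tested actin-related genes, most of them Arp proteins, 3 rose and 1 fell in Tg saline hearts. In WT Ang II hearts 1 rose and 2 fell. With both directions together, the count in Tg saline hearts was near the 40.6% of all genes. Actr1b and Actr1a, of the dynactin filament, rose by 0.24 and 0.21 in Tg saline hearts, Actr1b rose by 0.11 in WT Ang II hearts, and Actr3b fell by 0.50 in Tg saline and fell by 0.41 in WT Ang II hearts. Actl6a, a chromatin subunit, fell by 0.15 in WT Ang II hearts.

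The genes whose level followed each member most closely within groups were found over the 50 libraries, as Pearson's r of log2(scaled FPKM + 1) after group means were taken off. These are descriptions, and the libraries share their scaling and tissue. For Acta1 they were Xirp2 at r = 0.681, Grb10, an adaptor of the insulin receptor, at 0.662 and Dffa, an inhibitor of an apoptotic nuclease, at 0.640. In the same order, Spearman's rho was lower, at 0.565, 0.544 and 0.531. For Actc1 they were Pip5k1b at 0.699, Slc35f6 at 0.687 and Mrps22 at 0.681. For Acta2 they were Gpx8, a peroxidase of the endoplasmic reticulum, at 0.662, Yaf2 at 0.583 and Dok5 at 0.576. Their rho was 0.706, 0.462 and 0.525, and Dok5 averaged only 0.635 scaled FPKM over all libraries. For Actb they were Gm12715 at 0.881, the filament elongation factor Vasp at 0.833 and Pea15a at 0.816. For Actg1 they were Gm12715 at 0.946, Cmtm6 at 0.695 and Atf3, a stress-induced transcription factor, at 0.683. Gm12715 is the pseudogene nearly identical to the Actg1 coding sequence, and the part of shared reads in its values was not tested.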

How the data were processed

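The deposited table held a whole-number count and an FPKM value for each gene and library. The authors' tools were cutadapt 1.9, FastQC, HISAT2 2.0.4 and StringTie 1.3.4d, per the submitters' processing notes, in no stated order. Libraries were made from poly(A) RNA by a dUTP method and read as paired ends of 150 bases, per the labels. The counting tool, its strand setting, its rule for multi-mapped reads and the genome build are not given in the sources used here. Of 35717 genes, 35599 were found in GENCODE M21, 91.6% of them at the same positions, and all 5 actin genes matched, so GRCm38 positions are given. In library 965 the ratio of the deposited counts to FPKM was 1.21 times that of the median library, against 0.989 to 1.01 times in the others, so scaled FPKM used median-of-ratios factors of the FPKM themselves.

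The test covered genes that reached an FPKM of 1 in 5 or more libraries (edgeR 4.0.16 in R 4.3.3). Counts were scaled by median-of-ratios, with 1 mean for each of 8 groups and sexes weighted equally. The standard error of a fold change was taken from its F statistic. Shares used exact permutation within sex, and residual permutation with 100000 resamples for the difference in response. Alternatives used limma 3.58.1 and DESeq2 1.42.0. The script was tested on simulated counts. The members, lists and rules for naming genes were chosen with earlier results of these data known. From each pathway list, the 3 genes with the smallest p in each of 2 comparisons are named. Library-number clusters, split where numbers differed by more than 20, are not stated to be batches. Counting error was at most 1.95% (CV) for any member in any library.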

Additional observations from a re-analysis of the deposited data

Results flagged for a closer look

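Within the 40 sets of 1 member in 1 group of genotype, treatment and sex, a library was set apart when its gap to the nearest other library, divided by the range of the group, passed Dixon's 95% value. This occurred in 5 sets, and chance alone gives about 1 in 20. In each case 1 library stood apart from the others of its group.

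Acta1 was 666 scaled FPKM in Tg Ang II female replicate 2 (library 238), where the next of the 7 libraries had 298 and the lowest 150. Acta1 was 956 scaled FPKM in WT Ang II male replicate 1 (library 159), where the next had 377 and the lowest 196. Without library 238 the rise of Acta1 with Ang II in Tg hearts and without library 159 that in WT hearts were still called.

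Actb was 119.6 scaled FPKM in WT Ang II female replicate 3 (library 165), against 76.7 in the next library. Actc1 was 5112 scaled FPKM in Tg saline female replicate 3 (library 237), the lowest of 6, where the next lowest had 5697 and the highest 6030. Actc1 was 7562 scaled FPKM in WT saline female replicate 5 (library 968), against 5357 in the next library and 4758 in the lowest.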

How the results depend on the processing

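The calls of Acta1 with Ang II and of Acta2 with the transgene were made in every alternative run (other scaling, no filter, DESeq2, limma, each sex, library-number clusters as a block, libraries 329 and 847 left out, each library left out in turn). The log2 fold change of Acta1 was 1.40 to 2.09 in WT hearts and 1.56 to 1.81 in Tg hearts under the other settings, and 1.55 to 1.87 and 1.46 to 1.72 in the same hearts with a library left out. That of Acta2 was 1.11 to 1.37 with saline and 1.02 to 1.17 with Ang II under the other settings, and 1.10 to 1.31 and 0.98 to 1.13 with a library left out. No paired analysis was possible because every library number occurs once, so no numbers pair libraries. Library size alone moved the median of all genes by 0.137 between Tg saline and WT saline hearts. Depth limits little here, and the spread between libraries sets the intervals.

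Members called numbered 2 between Tg saline and WT saline hearts with library size alone (Actc1 at 0.19, adjusted p = 0.00540), and 1 to 2 with a library left out. Between Tg Ang II and WT Ang II hearts they numbered 1 without a filter (Actc1 adjusted p = 0.0824), 1 in females (0.324) and 1 in males (0.102), and 1 to 2 with a library left out. With library size alone, 4 members were called between Tg saline and WT Ang II hearts, and 2 to 3 with a library left out. Causes were not tested. The Actc1 share was no longer called with Ang II in WT males (-3.26 points, adjusted p = 0.0728) and in Tg females (-2.13 points, adjusted p = 0.0812).

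Some values that were not called changed sign. Between Tg saline and WT saline hearts this held for Actb in females (-0.056) and with the cluster block (-0.029), Acta1 in males (-0.066) and Actg1 in males (0.018). With Ang II in WT hearts it held for Actc1 with library size alone (0.049) and in males (0.059) and Acta2 in males (0.15). Between Tg Ang II and WT Ang II females it held for Acta1 (-0.22) and Actg1 (-0.084). For the difference in response it held for Actb in females (0.092) and with the block (0.062) and for Acta1 in males (0.31) and with the block (0.16). Under the other settings that difference ranged from -0.52 to 0.31 for Acta1. Actg1 was -0.066 between Tg saline and WT Ang II females, and its sex difference in response was -0.059 with library size alone.

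Among shares, in points, Acta1 was 0.241 in females between Tg saline and WT saline, 0.516 in males between Tg Ang II and WT Ang II and 0.791 in males for the difference in response. Under the other settings the Acta1 share ranged from -1.46 to 0.791 for the difference in response. Actb was 0.126 in males between Tg saline and WT saline, Acta2 was 0.0170 in WT males with Ang II, and Actc1 was 0.843 in females between Tg Ang II and WT Ang II. For the difference in response Actc1 was -0.433 in males and Actb 0.0663 in females.

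With a library left out, log2 fold changes that changed sign ranged from -0.0010 to 0.12 for Actb between Tg saline and WT saline, -0.038 to 0.056 for Actc1 with Ang II in WT, -0.16 to 0.21 for Acta1 and -0.036 to 0.065 for Actg1 between Tg Ang II and WT Ang II, -0.28 to 0.088 for Acta1 and -0.084 to 0.047 for Actb in the difference in response, -0.0026 to 0.044 for Actc1 between females and males, and -0.034 to 0.094 for Actg1 in the sex difference in response. Shares ranged from -0.134 to 0.182 for Acta1 and -0.0856 to 0.0861 for Actb between Tg saline and WT saline. Between Tg Ang II and WT Ang II they ranged from -0.731 to 0.364 for Acta1 and -0.719 to 0.338 for Actc1. In the difference in response they ranged from -0.714 to 0.381 for Acta1, -0.213 to 0.844 for Actc1 and -0.170 to 0.00126 for Actb.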
